A study of Mus musculus with 4 samples.

Results

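The genes described here were the transcription factor genes Myc and Atf4 and 7 amino acid transporter genes, taken by name: Slc7a5, Slc3a2, Slc1a5, Slc7a1, Slc7a6, Slc38a1 and Slc38a2. They were 9 of the 50600 genes in the count tables, and they were listed by name, not by a threshold on a measured value. The series held 4 RNA-seq libraries of T-helper 2 cells, CD4 T cells that make interleukin-4 and help in responses to worms and allergens. The cells were primary cells of the mouse strain C57BL/6NJ, and the 4 libraries formed 1 group, biological replicates 1 to 4, with no control and no second cell type. Age was given as unknown, and a time of 24 hours was named only in paths of the table headers. All 4 libraries carried the same donor record, and nothing in the labels said that the replicates came from separate mice, so the p-values speak of the spread among these 4 samples alone, and that spread may be technical.

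Myc is a transcription factor that T cells switch on when their antigen receptor is engaged, and it drives ribosome production, nucleotide synthesis and the uptake of nutrients. Atf4 is the transcription factor of the integrated stress response: its protein is made when amino acids run short and the initiation factor eIF2 is phosphorylated, and it turns on transporters and enzymes that restore the amino acid supply. The transporters of the group carry the large neutral amino acids (Slc7a5 with its partner chain Slc3a2), glutamine and other small neutral amino acids (Slc1a5, Slc38a1, Slc38a2) and the cationic amino acids arginine and lysine (Slc7a1, and Slc7a6 with Slc3a2). Leucine brought in by Slc7a5 activates the growth kinase complex mTORC1, and activated T cells are known to need this transporter to divide.

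Because fragments were counted on 1 strand and most counts in these tables lay in genes that overlap a gene on the opposite strand, the surroundings of each gene were examined before its values. None of the 9 genes had 50 or more exon bases in common with an opposite-strand gene, whereas 7552 of the 50600 genes did (14.9%), among them 4390 of 21764 protein-coding genes (20.2%). The number for the 9 genes was also 0 with a limit of 1 base or of 200 bases, and none shared exon bases with a gene on its own strand. There was thus no count of an overlapping feature to give for any of them. Slc7a5 lies within the span of Gm20388, an opposite-strand gene model annotated as protein-coding, with which it shares no exon bases and which had 0 counts in the 4 libraries. The closest pairs outside the genes' own spans were Slc3a2 with Snhg1, the host gene of small nucleolar RNAs, and Slc7a5 with BC048644, annotated as a bidirectional promoter long non-coding RNA. In both pairs the genes are transcribed away from each other, and the whole stretch between the GENCODE starts is printed here because both transcripts of a pair start at its ends. The stretches were read from RefSeq promoter windows of GRCm38.p6 on the plus strand, with coordinates in mm10. In the first, chr19:8723370-8723474, capitals mark the letters of a TATA box (TATAAA) on the minus strand, the strand of Slc3a2. These letters lie near the Snhg1 end of the stretch, away from the Slc3a2 start, and which gene they serve was not tested. In the second, chr8:121907695-121907832, capitals mark GC boxes (GGGCGG) on the minus strand, the strand of Slc7a5.
Slc3a2 to Snhg1: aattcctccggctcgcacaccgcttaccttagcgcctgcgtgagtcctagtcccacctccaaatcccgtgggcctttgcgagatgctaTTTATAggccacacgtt
Slc7a5 to BC048644: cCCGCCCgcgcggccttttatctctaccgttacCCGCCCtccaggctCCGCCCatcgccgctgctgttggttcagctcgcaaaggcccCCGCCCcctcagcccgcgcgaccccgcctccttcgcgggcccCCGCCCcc

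The Slc3a2 stretch was 105 bases long with 56.2% G and C and held 1 TATA box, and the Slc7a5 stretch was 138 bases long with 75.4% G and C and held 5 GC boxes. Snhg1 had 15, 16, 9 and 1 counts in replicates 1 to 4 and BC048644 had 0, 0, 1 and 0, against 100, 86, 111 and 91 for Slc3a2 and 23, 28, 31 and 55 for Slc7a5. In counts, not scaled by depth, Snhg1 was thus lowest in replicate 4, and Slc3a2 was lowest in replicate 2. Over all 32851 RefSeq promoter windows of 300 bases, 250 before and 50 after a start, a TATA box on either strand was found in 13.6% and a GC box in 35.7%. Such windows were matched for 5 of the 9 genes (Atf4, Slc7a1, Slc7a6, Slc3a2 and Slc38a2), with 7 windows in all. A GC box lay in 5 of the 7 windows, of Slc38a2, Slc3a2, Slc7a1 and Slc7a6, and a TATA box in 1, of Slc7a1. The RefSeq window matched to Slc3a2 held no TATA box. The E-box CACGTG, the letters Myc and Max bind, was in 0 of the 7 windows and in 7.15% of all windows. The Atf4 response element TGATGNAAN was in 0 of the 7 and in 3.95% of all, searched on both strands.

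Within 5000 bases, the other genes on the opposite strand were 8 small nucleolar RNA genes near Slc3a2, each at 0 counts, Gm37947 near Myc, Rps19bp1 near Atf4, Slc7a6os near Slc7a6 and Gm38144 near Slc38a2. Slc7a6os, which encodes a protein of nuclear import and runs toward Slc7a6, ending 2010 bases from its end, had 50, 45, 49 and 42 counts, more than Slc7a6 in each library. Rps19bp1 had 9, 8, 6 and 3 counts, and Gm37947 and Gm38144 had 1 and 3 counts over the 4 libraries. No feature of either strand other than their own was found in this window for Slc1a5, Slc7a1 and Slc38a1. As a check for near copies, runs of 50 bases of each gene's transcripts were looked up in the transcripts of all other genes: the shared part was 4.23% for Slc38a1, 3.51% for Slc3a2, 0.147% for Slc7a1 and 0% for the other 6.

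Depth ran from 1804217 counts in replicate 1 to 2711948 in replicate 3, so that 3 counts, which a gene at 0 could still have, stood for 1.11 to 1.66 counts per 1e6 (CPM). Between 92.2% and 95.9% of the counts lay in genes whose exons overlap an opposite-strand gene. A count below is therefore the count on the strand the authors selected and is not read as the full expression of a gene. The ribosomal RNA gene CT010467.1 held 1.02%, 1.14%, 28.6% and 14.4% of the counts of replicates 1 to 4. Replicate 4 stood apart from the other 3: among genes with under 50 bases of such overlap and at least 10 counts in each other library, 53.2% were lower there by more than 1 in log2 CPM, set against the mean of the other libraries. Over all genes with a count, CT010467.1 included, no pair of libraries agreed within sampling noise. The chi-square per degree of freedom was 1.80 for replicates 1 and 2. For these 2 it was 39.0 and 39.2 against replicate 3, and 23.2 and 22.9 against replicate 4. For replicates 3 and 4 it was 16.8. The part of CT010467.1 in these values was not separated, so they are not read as differences over all genes. The 9 genes together had 374, 408, 420 and 302 counts, or 207, 221, 155 and 139 CPM.

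**Figure D1:**
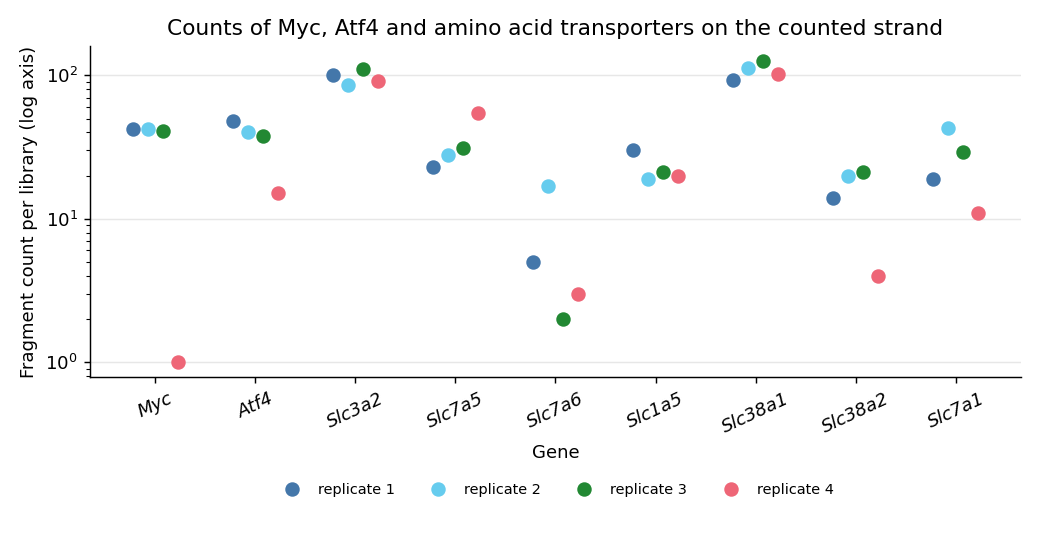
Fragment count of each of the 9 genes (horizontal) on a log axis (vertical), with 1 point per library, coloured by replicate. Myc is at 1 count in replicate 4, while Slc3a2 and Slc38a1 lie between 86 and 126 counts in the 4 libraries.

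Of the transcription factors, Myc was near 42 counts in 3 libraries and almost without counts in the fourth. Myc (ENSMUSG00000022346.15, chromosome 15, 61985391 to 61990374, plus strand, mm10) had 42, 42, 41 and 1 counts in replicates 1 to 4. Scaled to exon length as transcripts per 1e6 (TPM), that was 12.6, 12.3, 9.09 and 0.247, a mean of 8.54 ± 5.74 (SD, n = 4). Replicates 1 to 3 lay close together and replicate 4 lay below 1 TPM, on a single count that is under the 3 counts a count of 0 allows. Per unit of depth, replicate 4 held 0.0235 of the level of replicates 1 to 3 summed (95% exact conditional interval 0.000589 to 0.133). The intervals cover counting error only.

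Atf4 was also lowest in replicate 4, by a smaller factor. Atf4 (ENSMUSG00000042406.7, chromosome 15, 80255184 to 80257540, plus strand) had 48, 40, 38 and 15 counts, or 22.6, 18.4, 13.3 and 5.85 TPM. The mean was 15.0 ± 7.21 TPM (SD, n = 4), and the lowest of replicates 1 to 3 was above replicate 4. The ratio of replicate 4 to the other 3 per unit of depth was 0.349 (95% exact conditional interval 0.190 to 0.598). Atf4 exceeded Myc in each library: the log2 difference of Myc minus Atf4 was -0.84, -0.58, -0.54 and -4.10, or -1.52 ± 1.73 (SD, n = 4), a pair chosen after its values were seen.

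Slc3a2, the heavy chain that carries several light chains to the cell surface and is known there as CD98, had the highest mean TPM of the 9 genes. Slc3a2 (ENSMUSG00000010095.13, chromosome 19, 8706882 to 8723369, minus strand) was at 23.0, 19.3, 19.0 and 17.3 TPM, a mean of 19.7 ± 2.40 (SD, n = 4). Its replicates lay within a narrow range, and replicate 4 against the other 3 had a ratio of 0.898 (95% exact conditional interval 0.702 to 1.14).

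Slc7a5, the light chain that transports leucine and other large neutral amino acids, was the 1 gene of the 9 whose highest count was in replicate 4. Slc7a5 (ENSMUSG00000040010.10, chromosome 8, 121881150 to 121907694, minus strand) was at 5.04, 5.99, 5.04 and 9.97 TPM, a mean of 6.51 ± 2.35 (SD, n = 4). Replicates 1 to 3 were within 1 TPM of each other and replicate 4 was above them. The ratio of replicate 4 to the others per unit of depth was 1.97 (95% exact conditional interval 1.37 to 2.80), the opposite direction to Myc.

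Slc7a6, the other light chain of the group, which exchanges cationic for neutral amino acids, had few counts. Slc7a6 (ENSMUSG00000031904.5, chromosome 8, 106168857 to 106198706, plus strand) had 5, 17, 2 and 3 counts, or 0.888, 2.95, 0.264 and 0.441 TPM, a mean of 1.14 ± 1.24 (SD, n = 4). Replicate 2 stood above 1 TPM and the other 3 did not. The heavy chain was above both light chains in each library: Slc3a2 minus Slc7a5 was 2.17, 1.67, 1.89 and 0.79 in log2 TPM, or 1.63 ± 0.60, and Slc3a2 minus Slc7a6 was 4.48 ± 1.30 (SD, n = 4), pairs chosen after their values were seen.

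Among the glutamine transporters, Slc38a1 had the smallest SD of the 9 genes relative to its mean, and Slc38a2 was lowest in replicate 4. Slc38a1 (ENSMUSG00000023169.14, chromosome 15, 96571418 to 96642913, minus strand), a sodium-coupled importer of glutamine and alanine, was at 9.00, 10.7, 9.05 and 8.17 TPM, a mean of 9.22 ± 1.05 (SD, n = 4). Slc38a2 (ENSMUSG00000022462.6, chromosome 15, 96687394 to 96699698, minus strand), a related importer known to be induced by amino acid shortage, was at 2.46, 3.43, 2.74 and 0.581 TPM on 14, 20, 21 and 4 counts, a mean of 2.30 ± 1.22. The ratio of replicate 4 to the others was 0.901 (95% exact conditional interval 0.714 to 1.13) for Slc38a1 and 0.213 (0.0561 to 0.578) for Slc38a2. Slc38a1 minus Slc38a2 in log2 TPM was 1.83, 1.61 and 1.69 in replicates 1 to 3 and 3.60 in replicate 4.

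Slc1a5, which exchanges glutamine, serine and other neutral amino acids, was at low levels in the 4 libraries. Slc1a5 (ENSMUSG00000001918.17, chromosome 7, 16781340 to 16798274, plus strand) was at 5.84, 3.61, 3.03 and 3.22 TPM on 30, 19, 21 and 20 counts, a mean of 3.93 ± 1.30 (SD, n = 4). Replicate 1 was highest and the other 3 lay within 1 TPM. The ratio of replicate 4 to the others was 0.838 (95% exact conditional interval 0.483 to 1.39).

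Slc7a1, the main arginine and lysine importer of many cells, varied in 2 directions. Slc7a1 (ENSMUSG00000041313.14, chromosome 5, 148327410 to 148399904, minus strand) had 19, 43, 29 and 11 counts, or 1.34, 2.96, 1.52 and 0.641 TPM, a mean of 1.61 ± 0.972 (SD, n = 4). Replicate 2 was highest, 1.46 above the mean of the others in log2 CPM, and replicate 4 was lowest, with a ratio of 0.354 to the others (95% exact conditional interval 0.171 to 0.665). Its exon length of 11530 bases was the longest of the 9, so its counts stand higher beside the other genes than its TPM does.

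**Figure D2:**
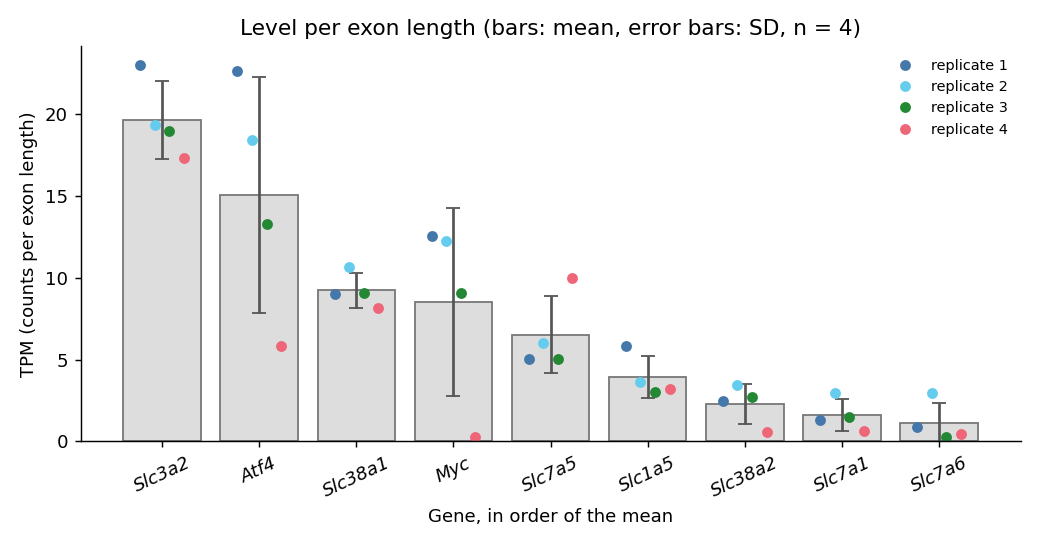
TPM of each of the 9 genes in the order of the mean: bars give the mean, error bars the SD (n = 4) and points the 4 libraries, coloured by replicate. Myc has 1 point at 0.247 TPM below its other 3, and the Slc7a5 point of replicate 4, at 9.97 TPM, lies above its other 3.

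With 1 group, the test the design allowed was of each level against 1 TPM, by limma's moderated one-sample test on log2(TPM + 0.1) with Benjamini-Hochberg adjustment over all genes with a count. Atf4, Slc7a5, Slc3a2, Slc1a5 and Slc38a1 were above 1 TPM and no member was below. That was 5 of 9, beside 32.1% of the 17203 genes tested above and 26.6% below. The median log2 difference from 1 TPM was 2.10 over the 9 genes and -0.35 over all genes tested. Slc3a2 was 4.16 ± 0.17 (SE) above 1 TPM in log2, with an adjusted p of 3.80e-08 and 4 of 4 libraries above. Slc38a1 was 3.08 ± 0.21 above (adjusted p = 1.90e-06) and Atf4 3.62 ± 0.31 (adjusted p = 1.42e-05), each in 4 of 4 libraries. Slc7a5 and Slc1a5 were 2.53 ± 0.27 and 1.82 ± 0.30 above (adjusted p = 5.26e-05 and 0.00086).

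The other 4 genes did not pass the limma test. Myc was 2.10 ± 0.92 (SE) above 1 TPM with an adjusted p of 0.0933 and 3 of 4 libraries above. Slc38a2 was at 0.89 ± 0.47 (adjusted p = 0.131), Slc7a1 at 0.46 ± 0.45 (adjusted p = 0.394) and Slc7a6 at -0.33 ± 0.60 (adjusted p = 0.654). Replicate 4 decided 2 of these: without it, limma put Myc 3.36 above 1 TPM (adjusted p = 2.30e-07) and Slc38a2 1.42 above (adjusted p = 0.00165), making 7 of 9, while the number of all genes called above went from 5523 to 6452. For Myc a pseudocount of 0.5 or 1 in place of 0.1 also gave an adjusted p below the threshold of 0.05, at 0.0333 and 0.0229.

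By mean TPM the order was Slc3a2, Atf4, Slc38a1, Myc, Slc7a5, Slc1a5, Slc38a2, Slc7a1 and Slc7a6. The exact two-sided sign-flip test could not decide whether neighbours in it differ, since with 4 libraries it cannot go below an unadjusted 0.125. Over the 8 neighbour pairs, it gave adjusted p-values from 0.333 to 1.00. In 3 of the 8 pairs the first gene was higher in each library. These were Slc3a2 over Atf4, by 0.54 ± 0.71 in log2(TPM + 0.1), Slc1a5 over Slc38a2, by 0.93 ± 1.04, and Slc7a1 over Slc7a6, by 0.79 ± 0.94 (SD, n = 4). The place of Myc depended on replicate 4. Slc38a1 minus Myc was 0.97 ± 2.41 with 4 libraries and -0.23 without replicate 4, and Myc minus Slc7a5 was -0.42 ± 2.96 with 4 libraries and 1.05 without it.

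Replicate 4 was set against the mean of the other 3 in log2 CPM, with no test, since 1 library against 3 of its own group has no replicates. Of the 8 genes with at least 10 counts in each other library, 4 were more than 1 lower in replicate 4 and 0 were more than 1 higher. With 53.2% of all 2313 genes compared in the same way lower, and 1.17% higher, the share of the 9 genes that was lower is near that of all genes and is not a result about them. The difference was -4.87 for Myc, -2.10 for Slc38a2, -1.51 for Atf4 and -1.41 for Slc7a1. It was -0.25 for Slc1a5 and -0.17 for both Slc3a2 and Slc38a1, and Slc7a5 stood at 0.95. The same count for replicates 1 to 3 took in 6 of the 9 genes. Replicate 4 was then among the other libraries, and Myc and Slc38a2, at 1 and 4 counts in it, were left out. Genes under 10 counts in replicate 4 could thus enter its own comparison only. This raises its share of lower genes beside the shares of replicates 1 to 3. Against the mean of its others, replicate 1 had 0 of the 6 lower and 1 higher (Atf4, at 1.04), beside 1.54% and 4.34% of all genes compared. Replicate 2 had 0 lower and 1 higher (Slc7a1, at 1.46), beside 1.6% and 12.6%. Replicate 3 had 0 lower and 0 higher, beside 7.43% and 0.338%.

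The 2313 genes themselves were widely spread, with a 25th percentile of -2.16, a median of -1.14 and a 75th percentile of -0.13. Atf4 and Slc7a1 lay in the middle of them, with 41.2% and 43.5% of the genes below, and Slc38a2 had 26.5% below. Slc1a5, Slc3a2 and Slc38a1 lay in the upper part, with 70.7%, 73.6% and 73.8% below. The ends were taken by Myc, with 1.60% of the genes below it, and by Slc7a5, with 98.6% below it. Among genes that share 50 or more exon bases with the other strand, 9.52% of 3150 were more than 1 lower in replicate 4.

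With factors of the trimmed mean of M values (TMM) in place of library totals, the median of all these genes was -0.92, and with DESeq2 size factors -0.81. The same 4 genes were lower under both, and Slc7a5 was then more than 1 higher, at 1.16 and 1.28. Slc3a2 and Slc38a1 changed sign under both scalings, to 0.04 and 0.05 with TMM and to 0.16 and 0.17 with DESeq2 size factors, and Slc1a5 to 0.08 with DESeq2 size factors only. In bulk RNA, fewer cells of a type and less RNA per cell cannot be told apart.

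**Figure D3:**
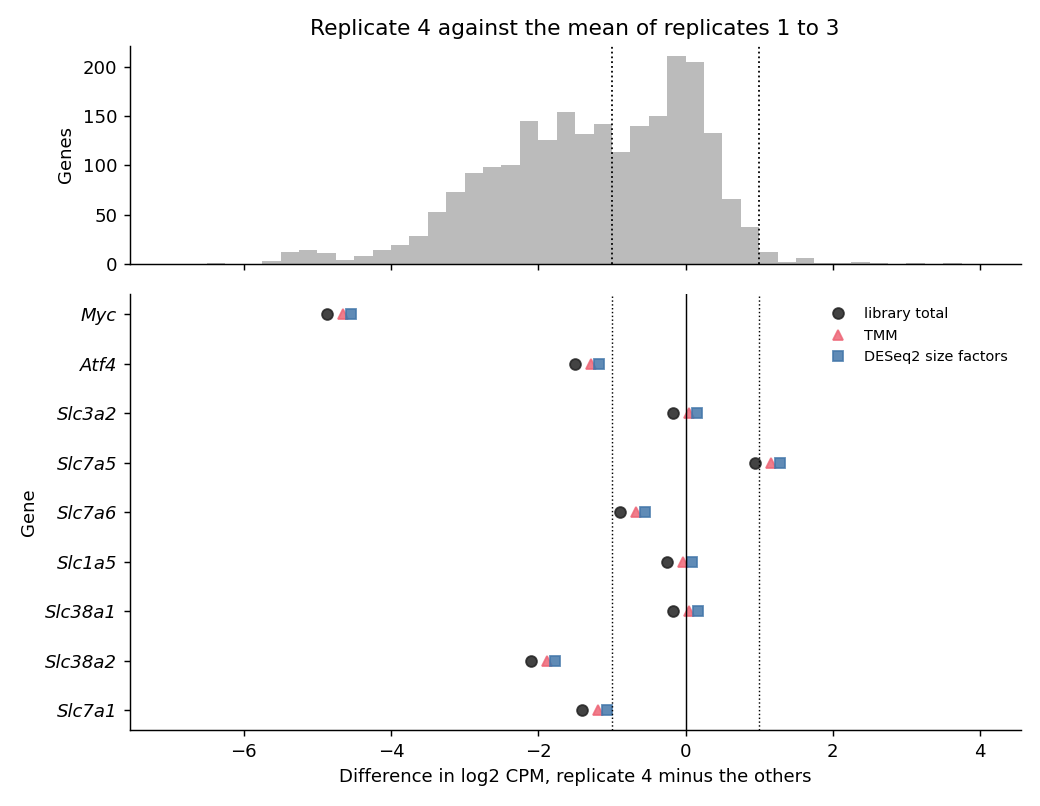
Difference of replicate 4 from the mean of the other libraries in log2 CPM (horizontal). The upper panel counts the 2313 genes that share under 50 exon bases with an opposite-strand gene, and the lower panel gives the 9 genes with library totals, TMM and DESeq2 size factors, with dotted lines at -1 and 1. Myc lies lowest and Slc7a5 highest of the 9 under the 3 scalings.

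Spread between replicates was tested with edgeR, by setting each gene's quasi-dispersion against the trend of genes of like level. It called 0% of 4190 genes after adjustment (0 genes, and 237 at an unadjusted p under 0.05, or 5.66%). DESeq2, run on all 17203 genes with a count, marked 27 as dispersion outliers. None of the 9 was among them, which says little at so small a share. Of the 9 genes, 6 passed the expression filter of edgeR and 0 were called. Myc, Slc7a6 and Slc38a2 did not pass it. With no filter edgeR called 149 genes (0.866%), and Myc was one of them, with a dispersion 8.18 times the trend and an adjusted p of 0.0427. On simulated counts the filtered test recovered 0 of 89 genes put 4-fold lower in 1 library and 20 of 35 put 16-fold lower. These are only the genes that passed its filter. More were put lower, and those the filter removed, as it removed Myc, were not tested. A count of 0 thus says little about changes of a few fold.

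The genes whose pattern over the 4 libraries was most like that of Myc were sought among the 4190 genes that passed the filter, by the root mean square difference in log2 CPM after centring each gene. The 3 nearest were Lcp1, an actin-bundling protein of blood cells, at 0.70, Rps12, a protein of the small ribosomal subunit, at 0.72, and Rack1, a ribosome-bound scaffold, also at 0.72. Lcp1 had 151, 150, 153 and 16 counts, Rps12 122, 124, 145 and 14, and Rack1 105, 169, 144 and 14. Each was lowest in replicate 4, as Myc was, which follows from how they were chosen. Each kept at least 14 counts there, but only genes that passed the filter, as Myc did not, could be chosen. Lcp1 shares 311 exon bases with the other strand. The counts of Rps12 may be uncertain because ribosomal protein genes have near-identical processed copies, which were not looked up for it.

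The genes around Myc and Atf4 were taken as 7 lists with 123 genes in all. By the limma test 45 of them were above 1 TPM, 21 below, 44 not called and 13 without a count, beside the 32.1% above and 26.6% below over all genes tested. The 123 include the 13 without a count, which were not tested, whereas the shares are over tested genes only. The calls also include genes with a feature opposite, whose counts depend on the strand counted. Unlike the 9 genes, 36 of the 123 (29.3%) share 50 or more exon bases with a feature on the other strand. In 20 of the 36 that feature had the higher count in each library, beside 42.1% of 6146 genes with such a feature. List genes are named below together with the feature opposite them, where they have one. Of the 123 genes, 34 had under 50 shared bases and at least 10 counts in each library other than replicate 4, and 26 of these were more than 1 lower in log2 CPM in that replicate, beside the 53.2% of all such genes.

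**Figure D4:**
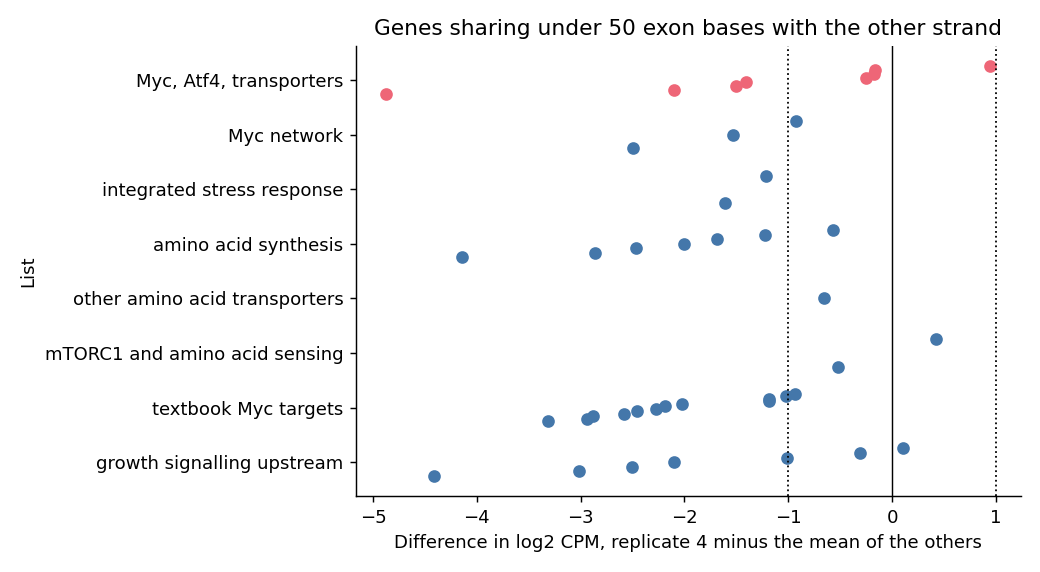
Difference of replicate 4 from the mean of the others in log2 CPM (horizontal) for the list genes with enough counts and under 50 shared exon bases, 1 row per list, with the 9 genes in red, the points offset vertically for legibility and dotted lines at -1 and 1. Of the 12 Myc targets 11 lie left of -1, and 4 of the 8 points of Myc, Atf4 and the transporters do.

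Of the Myc network, 14 genes that encode partners and antagonists of Myc, 4 were above 1 TPM, 4 below, 4 not called and 2 without a count (limma), with a median log2 difference of -0.97. Mxd3, an antagonist that competes for Max, had 1208, 1366, 1450 and 1144 counts, or 445 ± 65.0 TPM (SD, n = 4). It shares 104 exon bases with Prelid1, which had 59, 57, 87 and 63 counts. Mlx, a Max-like partner, was at 33.7 ± 7.97 TPM and lies opposite Psmc3ip, which had a mean of 661 ± 19.4 counts against 78 to 105 for Mlx. Mxi1, a further antagonist, had 5, 4, 6 and 2 counts, below those of Gm10197 opposite it. In replicate 4, 2 of the 3 network genes with under 50 shared bases and enough counts were more than 1 lower. Over all genes compared the share was 53.2%.

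The integrated stress response list, 17 genes around Atf4, had 6 genes above 1 TPM, 3 below, 7 not called and 1 without a count (limma), and a median of 0.52. Eif2ak1, the heme-regulated kinase of eIF2, had 1994, 2120, 1768 and 1737 counts, or 244 ± 55.0 TPM, and lies opposite Ankrd61 and Aimp2, the first with 908 ± 122 counts (SD, n = 4). Atf5, a relative of Atf4, had 500, 549, 685 and 727 counts, or 219 ± 18.8 TPM, and shares 82 exon bases each with Nup62 and Il4i1. Atf5 was thus highest in replicate 4, where Atf4, which shares no exon bases with the other strand, was lowest. In replicate 4, genes that share 50 or more exon bases had a median difference of -0.06 in log2 CPM. For genes that do not, the median was -1.14. Ppp1r15b, a phosphatase subunit that reverses the eIF2 mark, had 21, 13, 30 and 18 counts opposite Gm26616, with 826, 1068, 950 and 1495. In replicate 4, 2 of the 2 list genes with under 50 shared bases and enough counts were more than 1 lower. Over all genes compared the share was 53.2%.

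Among 15 enzymes of serine, glycine, asparagine and proline synthesis, textbook targets of Atf4, 7 were above 1 TPM, 2 below, 5 not called and 1 without a count (limma), with a median of 1.31. Psph, which catalyses the last step of serine synthesis, had 2368, 2399, 2650 and 3532 counts, or 450 ± 74.0 TPM, and shares 452 exon bases with Cct6a, a chaperonin subunit with 91, 133, 130 and 30 counts. Shmt1, the cytosolic enzyme that converts serine to glycine, was at 14.1 ± 2.96 TPM opposite Smcr8, which had 296 ± 51.8 counts. Of the 7 enzymes with under 50 shared bases and enough counts, 6 were more than 1 lower in replicate 4, beside 53.2% of all genes compared.

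The 27 other amino acid transporters had 4 genes above 1 TPM, 10 below, 5 not called and 8 without a count (limma), and their median of -1.60 was below that of all genes. The 1 gene of the list with under 50 shared bases and enough counts was not more than 1 lower in replicate 4. Of all genes compared 53.2% were, and 1 gene cannot speak for the list. Slc3a1, the heavy chain related to Slc3a2 and best known from kidney, had 181, 193, 194 and 175 counts, or 57.9 ± 8.26 TPM, higher than Slc3a2 per exon length. It shares 608 exon bases with Prepl on the other strand, whereas Slc3a2 shares none. Slc7a7, a light chain related to Slc7a6, was at 9.64 ± 2.02 TPM and shares 232 exon bases with Oxa1l. Slc38a10 and Slc43a2 had 12 to 26 and 19 to 28 counts, and the features opposite them, Gm11769 and Gm45606, had 321 ± 41.9 and 73.0 ± 10.4.

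Of 24 genes of mTORC1 and amino acid sensing, 6 were above 1 TPM, 2 below, 15 not called and 1 without a count (limma), with a median of -0.64. Of its 2 genes with under 50 shared bases and enough counts, 0 were more than 1 lower in replicate 4. Of all genes compared 53.2% were, and 2 genes are too few to speak for the list. Nprl3, a subunit of the complex that holds mTORC1 back when amino acids are scarce, had 819, 920, 902 and 1025 counts, or 86.7 ± 10.6 TPM, and shares 1340 exon bases with Mpg. Tsc2, an inhibitor of mTORC1, was at 25.6 ± 2.45 TPM and shares 578 exon bases with Pkd1. Mlst8, a core subunit, had 43, 43, 31 and 20 counts opposite Bricd5, which had 1138 ± 51.1. Rragc, a GTPase that brings mTORC1 to the lysosome, had 5, 10, 4 and 0 counts opposite 4930535I16Rik, which had 172, 195, 218 and 345.

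**Figure D5:**
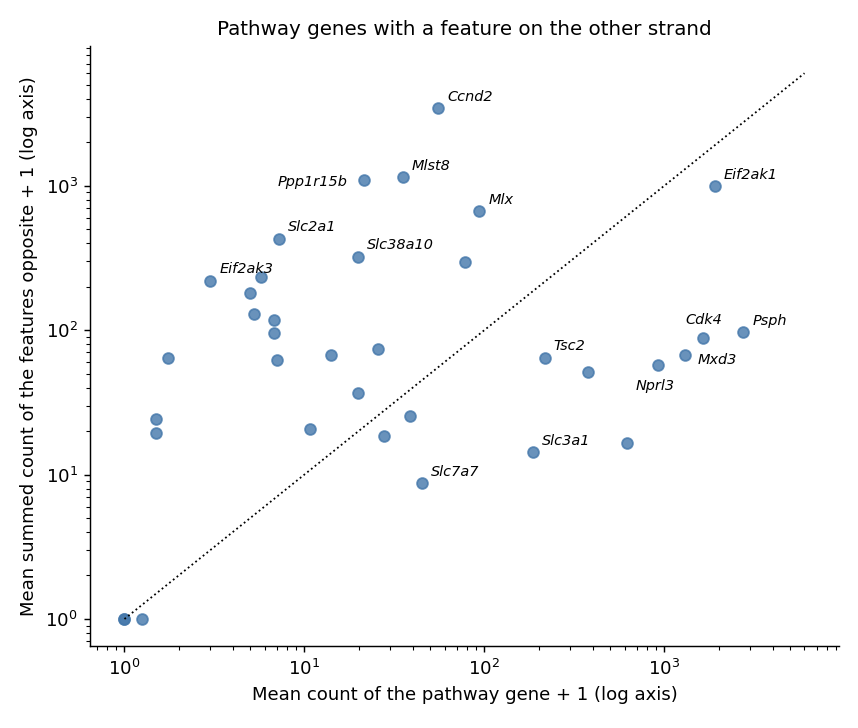
Mean count of each of the 36 pathway genes with a feature on the other strand (horizontal, count + 1) against the mean summed count of the features opposite (vertical, count + 1), both on log axes, with a dotted line where they are equal. Psph, Cdk4, Mxd3 and Nprl3 lie far below the line, and Ccnd2, Mlst8 and Ppp1r15b far above it.

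Of 15 textbook Myc targets of growth and the nucleolus, 13 were above 1 TPM, 0 below and 2 not called (limma), and their median of 3.28 was the highest of the 7 lists. Cdk4, the kinase of cell cycle entry, had 1674, 1546, 1779 and 1555 counts, or 362 ± 44.9 TPM, and shares 641 exon bases with Tspan31. Npm1, an abundant nucleolar protein, had 877, 1125, 1096 and 178 counts, or 224 ± 125 TPM. These counts may be uncertain because of processed copies, which were not looked up for it. Of the 12 targets with under 50 shared bases and enough counts, 11 were lower in replicate 4 by more than 1 in log2 CPM, beside 53.2% of all genes compared, and the median difference was -2.23. Ccnd2, a cyclin that pairs with Cdk4, had 62, 77, 66 and 13 counts opposite Gm43126, which had 3546, 3603, 3875 and 2734.

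Of 11 growth signalling genes upstream, 5 were above 1 TPM, 0 below and 6 not called (limma), with a median of 1.06. Il2, the T cell growth factor, had 42, 35, 28 and 4 counts, or 17.8 ± 12.0 TPM, and Il2ra, the chain that gives its receptor high affinity, had 61, 110, 76 and 19, or 8.55 ± 5.33 TPM. Both were lowest in replicate 4. There, 5 of the 7 list genes with under 50 shared bases and enough counts were more than 1 lower. Over all genes compared the share was 53.2%. Slc2a1, the main glucose transporter of T cells, had 3, 8, 10 and 4 counts opposite Gm12868, which had 394, 438, 380 and 503. Rps6kb1, the kinase downstream of mTORC1, had 22, 18, 19 and 16 counts opposite Rnft1, which had 48, 30, 28 and 37.

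The label of the cells was checked against markers. Of 11 T helper markers, 10 were above 1 TPM by the limma test, and the 9 without a feature opposite had 225, 280, 217 and 92 counts, or 125, 152, 80.0 and 42.4 CPM, lowest in replicate 4. Of these markers, 5 of the 7 with enough counts were more than 1 lower there, beside 53.2% of all genes compared. Il4, also 1 of the 7, did not follow the sum. It had 24, 21, 25 and 26 counts and a difference of 0.10 in log2 CPM in replicate 4. Of 23 markers of other cell types, 15 were at 0 in the 4 libraries, among them Cd8a, Ms4a1, Adgre1, Lyz2, Itgax, Ncr1 and Epcam, and 4 were above 1 TPM: Alas2, Cd68, Cd79a and Csf1r. The 21 without a feature opposite had 51, 43, 39 and 54 counts, or 28.3, 23.3, 14.4 and 24.9 CPM. Csf1r, a receptor of macrophages and monocytes, had 1026, 993, 1006 and 983 counts, and Hmgxb3, opposite it over 871 exon bases, had 7, 4, 8 and 3. With it and Alas2, the 23 markers had 1111, 1075, 1079 and 1068 counts, more than the 261, 344, 275 and 118 of the 11 T helper markers. Csf1r held most of the larger sum. Among the T helper markers, Cd3e and Gata3 had means of 12.75 and 33.25 counts. Gm48719 and Gm13256, the features opposite them, had 2722 and 1689. These sums depend on the strand counted and are not read as shares of cells. With CT010467.1 left out of the library totals, the difference of Myc in replicate 4 was -4.82 in log2 CPM, in place of -4.87. The part of other cell types or of the ribosomal RNA share in the low Myc count of replicate 4 was not tested.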

How the data were processed

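RNA was measured in 4 libraries of 1 group, grouped and numbered by the labels. Per the file headers, the deposited values are raw fragment counts per gene, made by the authors with featureCounts 1.4.6-p4 on GENCODE M13 exons, for pairs with both ends aligned and strand setting 1. The labels name mm10. Total RNA-seq is the assay given there, although the protocol they link has poly(A) RNA in its name. The aligner's version is not given in the sources used here.

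Symbols were matched for 50376 of 50600 IDs, and 224 were unmatched. TPM was computed from counts and summed exon lengths. Shared exon bases came from the tables' coordinates, and gene types and transcripts from a GENCODE reference of the same assembly. Limma 3.58.1 tested log2(TPM + 0.1) against 1 TPM with trended, robust variance. edgeR 4.0.16 tested spread, with TMM factors and its default filter. The threshold was an adjusted p of 0.05. Differences of a replicate used log2 CPM with a prior of 0.5. R 4.3.3, DESeq2 1.42.0, Python 3.11.15, scipy 1.17.1, pandas 2.3.3 and matplotlib 3.10.9 were used. Intervals are at 95%.

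On simulated counts, limma called 100 of 100 genes put at 4 TPM above and 92 of 100 at 0.25 TPM below. These shares are not read as the power of limma on the real libraries, in which replicate 4 stood apart. There Myc, at a mean of 8.54 TPM, was not called above 1 TPM by limma (adjusted p = 0.0933). For spread, edgeR recovered 0 of 100 genes put 4-fold higher in 1 library and 94 of 100 put 16-fold higher.

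The genes and lists were chosen with earlier results of these data known. Named genes were the 9, the features opposite them, per list the 2 genes highest in mean TPM and the 2 with the most abundant feature opposite, and the 3 most like Myc. The planned test of opposite features against the 9 genes had no pair. Alternatives changed the pseudocount, filter, scaling or tool, or left out 1 replicate. A total without CT010467.1 and a minimum of 1 count were added after seeing the data.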

Additional observations from a re-analysis of the deposited data

Results flagged for a closer look

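In 4 of 21 sets of 4 values examined, replicate 4 lay apart from the other 3 by more than Dixon's 95% limit. Chance passes that limit in about 1 of 20 independent sets, but these sets share genes and some pairs were chosen after their values were seen, so their number is not read against it. These were 4 log2 TPM differences between genes in replicate 4: Slc38a1 minus Myc at 4.57, Myc minus Slc7a5 at -4.86, Myc minus Atf4 at -4.10 and Slc38a1 minus Slc38a2 at 3.60. The first 3 rest on the single Myc count of replicate 4 and the last on 4 counts of Slc38a2. No gene's own TPM over the 4 libraries passed the limit. The causes were not tested.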

How the results depend on the processing

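Of 296 alternative values, 58 for the main comparisons stayed of like size to the main value, a loose measure. Among these, the number of the 9 genes called above 1 TPM went from 5 to 7 without replicate 4. A further 211, for single genes, kept their call, their sign or a place within the replicate spread. Some of these were small differences of replicate 4 with a change of sign (Slc3a2 and Slc1a5). With a mean count of at least 10, genes below 1 TPM numbered 13 against 4571, and 2410 to 2928 with each replicate left out. The spread test called 149 genes without a filter, 1 of the 9 among them, 0 to 18 with a replicate left out (18 without replicate 4), and DESeq2 marked 27. On CPM, 5 of 8 neighbour pairs kept 1 sign in each library, against 3, and 3 to 7 with a replicate left out (7 without replicate 4). On CPM, which is not scaled by length, Atf4 minus Slc38a1 became -1.73 and Slc38a2 minus Slc7a1 -0.85. With a replicate left out, Slc38a1 minus Myc ran from -0.23 to 1.46 and Myc minus Slc7a5 from -0.999 to 1.05, changing sign without replicate 4 only. Slc7a6 against 1 TPM ran from -0.92 to 0.10 with a replicate left out, above 0 without replicate 3 only. With at least 30 counts, 2 of 4 genes were lower in replicate 4, in place of 4 of 8. No paired analysis was possible because the series held only 1 group. No alternative for features opposite the 9 genes gave a value, since none had such a feature. For Slc7a6 the ratio of replicate 4 to the others had an interval of 0.0706 to 1.21, so no difference was detectable at this depth. The causes of these changes were not tested.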
